A study of Homo sapiens with 6 samples.

Results

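The BTG and TOB family is a small group of antiproliferative proteins, and its transcripts were measured here by bulk RNA sequencing in the human β cell line EndoC-βH1. The family genes BTG1, BTG2, BTG3, TOB1 and TOB2 were examined, 5 of the 60671 gene identifiers in each count table, and all 5 passed the filter on low counts that left 17649 genes. They were chosen by family membership together with the level of BTG2 in AZD7762 against DMSO in these same samples, so their values in that contrast are a description. No p-value is given for them, and their count among the genes called over the whole table is printed beside the share of all genes and supports nothing. The 6 libraries were 3 of cells given the vehicle DMSO and 3 of cells given 1 µM AZD7762, an inhibitor of the checkpoint kinases CHEK1 and CHEK2. All cells were wild type and spent 1 h of starvation at 0.5 mM glucose before a stimulation of 1 h, with DMSO or AZD7762 present throughout. The stimulation used either 0.5 or 20 mM glucose, and which of the concentrations a library received is not stated. The cells are of 1 line, and the labels do not say whether replicates were separate cultures, so p-values here measure the spread between these samples, which may be technical.

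BTG and TOB proteins share an N-terminal domain that binds the deadenylases CNOT7 and CNOT8 of the CCR4-NOT complex. Through this contact they recruit the complex to messenger RNAs and speed the removal of the poly(A) tail, and TOB1 and TOB2 also carry C-terminal motifs that bind the cytoplasmic poly(A)-binding protein PABPC1. BTG2, also known as TIS21 and PC3, was cloned as an immediate early gene induced by phorbol ester and by nerve growth factor, and it is a known target of the tumour suppressor p53. Family members slow the passage from G1 to S phase when overexpressed.

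The libraries held between 20486391 and 29402440 counts on genes. Mitochondrial genes took 1.57%, 2.13% and 2.12% of them in the DMSO replicates and 2.26%, 2.28% and 2.63% in the AZD7762 replicates, so the groups did not overlap, and the part of this difference in the values below was not tested. A count of 3 corresponded to between 0.102 and 0.144 CPM (counts per 1e6 of the scaled library total), a floor that covers counting error only. All 12 β cell markers examined passed the filter, with INS at 1260 ± 351 CPM in DMSO and 1410 ± 250 CPM in AZD7762 (SD, n = 3 in each group), while the acinar markers PRSS1 and CELA3A had 0 counts and the leucocyte markers PTPRC, CD68 and CD3E had at most 8 counts in a library. The alpha cell hormone GCG lay between 1.11 and 1.95 CPM and the delta cell hormone SST between 202 and 265 CPM. The summed delta cell markers ranged from 219 to 249 CPM with DMSO and from 258 to 284 CPM with AZD7762, and those of the acinar markers, all from CPA1, from 20.97 to 22.6 CPM and from 24.7 to 27.5 CPM. Their part in the values below was not tested. In bulk RNA, fewer cells expressing a gene cannot be told apart from less RNA per cell.

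BTG2 showed the largest difference of the family. BTG2 (ENSG00000159388) lies on the plus strand of chromosome 1 of GRCh37, from 203274619 to 203278730, and its exons overlap no other annotated gene. Its normalized CPM were 108, 91.4 and 94.0 in DMSO replicates 1, 2 and 3, and 521, 605 and 534 in AZD7762 replicates 1, 2 and 3. The lowest AZD7762 library thus stood far above the highest DMSO library. The means of 3 replicates were 97.7 ± 8.75 CPM (SD) with DMSO and 553 ± 45.5 CPM (SD) with AZD7762, a 5.66-fold difference with a fitted log2 fold change of 2.50 (standard error 0.0823). These levels rested on 1962 to 3182 counts in the DMSO libraries and 11381 to 13102 counts in the AZD7762 libraries. The gain of 456 CPM was the largest among the 63 genes called higher over all genes tested, followed by 340 CPM for PDK4, whereas by log2 fold change BTG2 stood 10th.

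TOB1 and TOB2, the larger members with the PABPC1-binding tail, were also higher with AZD7762. TOB1 (ENSG00000141232, chromosome 17 of GRCh37, 48939584 to 48945339, minus strand) had 50.2, 46.7 and 50.6 CPM in the DMSO replicates and 93.9, 113 and 87.9 CPM in the AZD7762 replicates. Its 2.00-fold difference, from 49.2 ± 2.13 to 98.4 ± 13.4 CPM (SD, n = 3 in each group), gave a log2 fold change of 1.00 (standard error 0.0876). TOB2 (ENSG00000183864, chromosome 22, 41829498 to 41842805, minus strand) had 38.6, 34.0 and 36.5 CPM in DMSO and 59.8, 66.8 and 62.8 CPM in AZD7762. From 36.4 ± 2.29 to 63.1 ± 3.54 CPM, TOB2 differed 1.74-fold, a log2 fold change of 0.79 (standard error 0.0709). For both genes the groups did not overlap.

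BTG1 and BTG3 had the smallest differences of the family. BTG1 (ENSG00000133639, chromosome 12, 92534054 to 92539622, minus strand), the paralogue closest to BTG2, had 303, 256 and 261 CPM in the DMSO replicates and 306, 348 and 279 CPM in the AZD7762 replicates. The 2 groups overlapped, since AZD7762 replicate 3 lay below DMSO replicate 1, and the log2 fold change was 0.19 (standard error 0.0869). BTG3 (ENSG00000154640, chromosome 21, 18965971 to 18985263, minus strand) had 89.5, 88.7 and 89.5 CPM in DMSO and 86.4, 81.1 and 78.0 CPM in AZD7762. Here all AZD7762 libraries lay below all DMSO libraries, but the difference was small, with a log2 fold change of -0.13 (standard error 0.0593). BTG4, the remaining gene of the family, known mainly from oocytes, had at most 1 count in any library and was not tested.

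**Figure D1:**
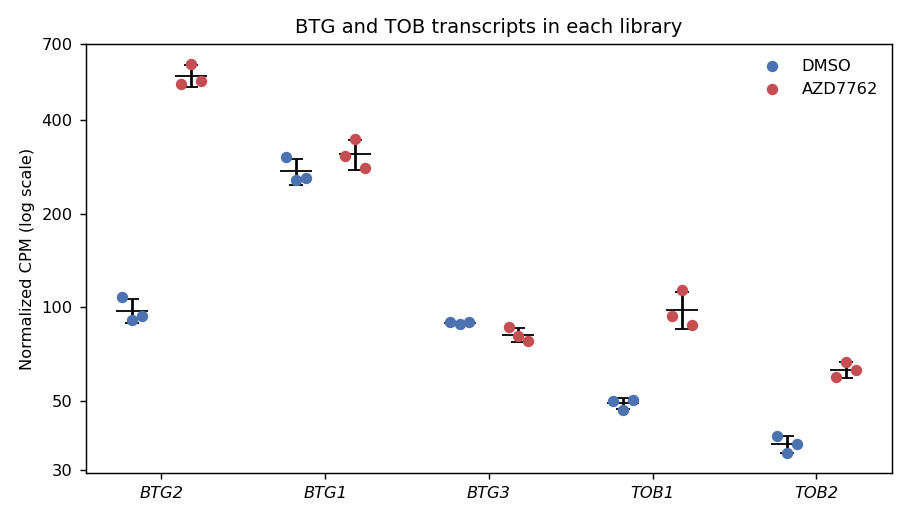
Normalized CPM (log axis) of the 5 family genes in each library, with DMSO in blue and AZD7762 in red. Each point is 1 library and the black bars give the mean and SD of 3. BTG2 moves from between 91.4 and 108 CPM to between 521 and 605 CPM, TOB1 and TOB2 are also apart between the groups, and BTG1 overlaps.

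With the quasi-likelihood test of edgeR and p-values adjusted over all genes by Benjamini-Hochberg, threshold 0.05, 3 of the 5 members were called higher with AZD7762, namely BTG2, TOB1 and TOB2, against 0.357% of all genes tested. None of the 5 was called lower, against 0.351% of all genes. For 4 of the 5 the groups did not overlap in CPM, which held for 15.0% of all genes. As this contrast took part in choosing the genes, these counts restate that choice and nothing is read from them. The median log2 fold change of the 5 members was 0.79, beside 0.00756 for all genes tested. BTG1, BTG2, TOB1 and TOB2 were each highest among the AZD7762 libraries in replicate 2, and all 5 members were lowest among the DMSO libraries in replicate 2. Without AZD7762 replicate 2, the log2 fold change of BTG1 was 0.091, and that of BTG2, TOB1 and TOB2 was 2.42, 0.88 and 0.75.

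Levels between members were compared as FPKM, here the normalized CPM per kilobase of annotated exon. With DMSO the order was BTG1 at 56.3 ± 5.32 FPKM, BTG3 at 38.7 ± 0.205, BTG2 at 35.4 ± 3.17, TOB1 at 19.5 ± 0.845 and TOB2 at 8.38 ± 0.527 (SD, n = 3). BTG3 and BTG2 overlapped in range, and the other neighbours did not. With the length of the longest transcript in place of all exons, BTG3 came level with BTG1, at 60.1 against 59.1 FPKM. BTG2 was then at 35.8 FPKM, so its closeness to BTG3 depended on the length used. With AZD7762 the order was BTG2 at 201 ± 16.5 FPKM, BTG1 at 64.1 ± 7.15, TOB1 at 39.0 ± 5.30, BTG3 at 35.5 ± 1.84 and TOB2 at 14.5 ± 0.816, and here TOB1 and BTG3 overlapped. With the longest transcript's length this last order turned, to 55.1 FPKM for BTG3 and 43.97 FPKM for TOB1. BTG2 therefore went from below BTG1 to 3.13 times its level. Among the 17549 tested genes with a length, BTG2 ranked 1259th by mean FPKM with DMSO and 93rd with AZD7762, while BTG1 ranked 645th and 570th, BTG3 1116th and 1311th, TOB1 2555th and 1154th, and TOB2 5521st and 3509th.

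The summed level of the family was 158 ± 9.60 FPKM with DMSO and 354 ± 28.7 FPKM with AZD7762. BTG2 made up 23.1%, 22.0% and 22.0% of that sum in the DMSO replicates and 55.5%, 56.8% and 57.9% in the AZD7762 replicates. BTG1 correspondingly held 35.5% ± 1.22 with DMSO and 18.1% ± 0.762 with AZD7762, with FPKM of its own of 56.3 and 64.1. The share of TOB1 was 12.3% ± 0.577 and 11.0% ± 0.604, since its rise was close to that of the family sum.

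**Figure D2:**
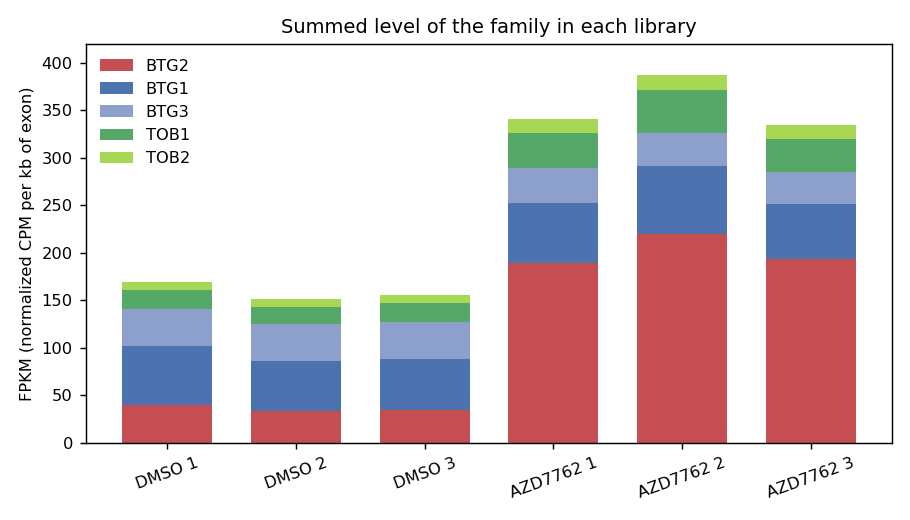
Stacked FPKM (normalized CPM per kilobase of exon, linear axis) of the 5 family genes in each of the 6 libraries. The summed level is between 151 and 169 FPKM in the DMSO libraries and between 334 and 387 FPKM in the AZD7762 libraries, and the red BTG2 segment accounts for most of the gap.

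Ratios taken within a library do not depend on how libraries are scaled. The log2 CPM of BTG2 minus the mean of its 4 paralogues was 0.34, 0.24 and 0.21 in the DMSO replicates and 2.24, 2.32 and 2.35 in the AZD7762 replicates. The means, 0.26 ± 0.0663 and 2.30 ± 0.0579 (SD, n = 3), differed by 2.04. Against single paralogues the difference between groups was 2.63 for BTG3, 2.32 for BTG1, 1.71 for TOB2 and 1.51 for TOB1. BTG2 against BTG1 was the steadiest of these ratios with DMSO, at -1.48 ± 0.00952. It changed sign with AZD7762, to 0.83 ± 0.0891, as BTG2 passed BTG1.

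None of the 5 tested genes beside the family members, or named for them, was called. BTG2-DT, a long noncoding RNA transcribed divergently from the BTG2 promoter, had 10, 9 and 9 counts in the DMSO libraries and 8, 5 and 8 counts in the AZD7762 libraries, too few for a test. TOB1-AS1, which overlaps 11.1% of the exon length of TOB1 on the opposite strand, had means of 3.11 and 2.87 CPM with DMSO and AZD7762 (log2 fold change -0.11, adjusted p = 0.886 in edgeR's test). BTG3-AS1 overlaps 14.1% of BTG3 on the opposite strand (log2 fold change -0.08, adjusted p = 0.929, edgeR). BTG1-DT overlaps 5.64% of the exon length of BTG1 on the opposite strand (log2 fold change -0.10, adjusted p = 0.918, edgeR), and LINC01619 overlaps 10.4% of it on the same strand (log2 fold change -0.47, adjusted p = 0.713, edgeR). These genes reached at most 3.42 CPM in any library. Whether counting used strand is not stated, so reads in the overlaps cannot be assigned with certainty. The pseudogenes BTG1P1 and BTG3P1 had 0 counts, and TOB2P1 had between 15 and 34 counts.

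The upstream sequences of the 3 members with the largest differences and of BTG1, the closest paralogue of BTG2, are shown to let their starts be compared. Each is the stretch of 250 bases before a transcript start, 5′ to 3′ on the strand of the gene, from RefSeq on GRCh38.p14. Capitals mark TGACG on either strand, the short form of the cAMP response element (CRE). BTG2 is chr1:203305269-203305518 on the plus strand. On the minus strand, TOB1 is chr17:50866355-50866604, before the more downstream of its 2 annotated starts, TOB2 is chr22:41446802-41447051 and BTG1 is chr12:92145847-92146096.
BTG2: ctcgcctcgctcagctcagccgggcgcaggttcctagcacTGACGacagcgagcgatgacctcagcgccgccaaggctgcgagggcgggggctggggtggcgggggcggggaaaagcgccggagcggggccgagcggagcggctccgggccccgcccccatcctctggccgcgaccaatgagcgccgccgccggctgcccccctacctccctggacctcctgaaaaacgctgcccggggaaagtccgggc
TOB1: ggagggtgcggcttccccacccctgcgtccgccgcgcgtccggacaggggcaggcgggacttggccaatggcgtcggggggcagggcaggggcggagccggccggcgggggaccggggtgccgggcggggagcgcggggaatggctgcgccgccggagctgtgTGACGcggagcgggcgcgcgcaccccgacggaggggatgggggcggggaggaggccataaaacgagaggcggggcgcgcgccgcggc
TOB2: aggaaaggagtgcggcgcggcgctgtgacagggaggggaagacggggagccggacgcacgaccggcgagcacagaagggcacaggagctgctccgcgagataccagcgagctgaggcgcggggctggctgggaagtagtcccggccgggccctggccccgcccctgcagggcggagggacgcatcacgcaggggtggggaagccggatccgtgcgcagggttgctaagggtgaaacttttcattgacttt
BTG1: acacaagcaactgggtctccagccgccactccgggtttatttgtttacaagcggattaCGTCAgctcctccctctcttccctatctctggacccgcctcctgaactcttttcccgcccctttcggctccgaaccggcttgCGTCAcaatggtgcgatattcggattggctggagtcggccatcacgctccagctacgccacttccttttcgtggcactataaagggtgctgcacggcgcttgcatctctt

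The windows searched also took in 50 bases after each start, on both strands, and the 5 genes had 6 windows. TGACG was found in the BTG2 window, first base 210 bases before the start, in the downstream TOB1 window at 87 bases, and in the BTG1 window at 192 and 110 bases. It was not found in the windows of TOB2 and BTG3 or in the other TOB1 window. Of all 35116 RefSeq promoter windows of this length, 24.6% hold TGACG. The matches therefore did not divide the members with larger differences from those with smaller ones. The full CRE TGACGTCA, which contains TGACG, the AP-1 site TGANTCA and the CArG box of serum response factor were found in none of the 6 windows, and 1.85%, 7.71% and 1.29% of all windows hold them. The p53 response element, searched as its consensus with no mismatch allowed, was also not found there. Only 10 of the 35116 windows (0.0285%) hold this strict pattern, so its absence from 6 windows says little. The E-box CACGTG (7.26% of all windows) had no match in the 6 windows, and TATAAA (11.5%) had 1, in BTG1 at 33 bases before the start. These matches are letters within a window and do not show binding.

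The genes most like BTG2 across the 6 samples were RGS2, FOS, KLF4, FOSL2 and DUSP4. Likeness was the root mean square difference between log2 CPM profiles, each centred on its mean, over the 13877 genes whose mean log2 CPM was 1 or more. RGS2, a regulator of G protein signalling, was nearest by far, with a difference of 0.0951 against 0.264 for FOS, a subunit of AP-1. Its CPM were 12.7, 11.1 and 11.98 in the DMSO replicates and 54.9, 66.1 and 59.3 in the AZD7762 replicates. The libraries thus stood in the same order for RGS2 as for BTG2. KLF4, a zinc finger factor, FOSL2, a further AP-1 subunit, and DUSP4, a phosphatase of MAP kinases, followed at 0.357, 0.363 and 0.376. Pearson's r with BTG2 was between 0.978 and 0.999 for these 5 genes, over 6 samples that fall into 2 groups, and so mainly shows that the groups differ. The distance likewise mainly reflects how close a gene's log2 fold change is to the 2.50 of BTG2. It was 2.33 for RGS2, 2.92 for FOS and 1.83 for KLF4. Shared regulation was not tested.

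**Figure D3:**
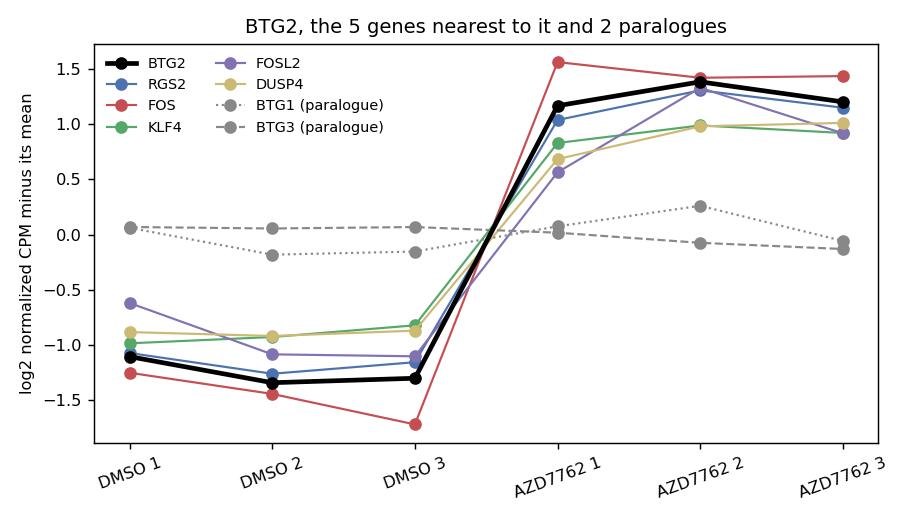
Log2 normalized CPM minus the mean over the 6 libraries (linear axis) for BTG2 in black, the 5 genes nearest to it in colour, and the paralogues BTG1 and BTG3 in grey. Lines only join the values of 1 gene. RGS2 runs closest to BTG2, at a root mean square difference of 0.0951, while BTG1 and BTG3 stay near 0 in all libraries. The paralogues TOB1 and TOB2, which differed more between the groups, are not drawn.

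TOB1 and TOB2 had other nearest genes. For TOB1 these were SYT4, a synaptotagmin, SOX2 and GEM, a small GTPase, with differences of 0.0811, 0.0994 and 0.1098. The mean CPM of SYT4 was 146 with DMSO and 281 with AZD7762. For TOB2 they were PEG13, ETS2 and ARHGDIB, with differences of 0.0509, 0.0645 and 0.0845. None of these 6 genes was among the 5 nearest to BTG2. That follows from the log2 fold changes of 2.50 for BTG2, 1.00 for TOB1 and 0.79 for TOB2, which largely set this distance. Nothing further is read from it.

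The proteins that BTG and TOB members act with were then examined at the level of transcripts. Of 12 CCR4-NOT subunits, 12 were tested and 0 were called in either direction, against 0.708% of all genes tested, and 1 had an unadjusted p under 0.05, against 9.68% of all genes. The median log2 fold change of all genes was 0.00756. Their log2 fold changes lay between -0.15 for the tankyrase-binding subunit TNKS1BP1 and 0.19 for CNOT3, with a median of 0.018. CNOT3, the subunit with that unadjusted p, had 65.3, 65.8 and 74.2 CPM in the DMSO replicates and 78.7, 71.7 and 83.1 CPM in the AZD7762 replicates (adjusted p = 0.425 in edgeR's test). The groups overlapped. The deadenylases CNOT7 and CNOT8, which the BTG domain binds, had log2 fold changes of -0.02 (standard error 0.0646) and 0.05 (standard error 0.0638).

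Of 10 poly(A)-binding proteins, other deadenylases and CPEB proteins, 0 were called and 2 had an unadjusted p under 0.05, beside 0.708% and 9.68% of all genes. Their median log2 fold change was -0.09. CPEB2 and CPEB4, which bind elements that control poly(A) tail length, had log2 fold changes of -0.36 (adjusted p = 0.227) and -0.19 (adjusted p = 0.328, both in edgeR's test). For both, all AZD7762 libraries lay below all DMSO libraries. Groups did not overlap, in either direction, for 15.0% of all genes. PABPC1, the partner of the TOB tail, was at 482 ± 17.2 CPM in DMSO and 492 ± 12.9 CPM in AZD7762 (SD, n = 3). Of 6 further partners, namely PRMT1, 4 SMAD proteins and HOXB9, 5 were tested, 0 were called and 1 had an unadjusted p under 0.05, beside the same shares of all genes, their median log2 fold change was 0.016, and HOXB9 had 0 counts. SMAD9 (log2 fold change -0.18, adjusted p = 0.462, edgeR) and PRMT1, the arginine methyltransferase that binds BTG1 and BTG2 (log2 fold change 0.10, adjusted p = 0.644, edgeR), differed most. The groups of SMAD9 did not overlap, and those of PRMT1 did.

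Among 20 genes of the G1 phase, 18 were tested, 1 was called higher and 0 lower, beside 0.357% and 0.351% of all genes, 3 had an unadjusted p under 0.05, beside 9.68%, and the median log2 fold change was 0.00817. The called gene was MYC, a growth-promoting transcription factor, which had 2.64, 3.60 and 2.78 CPM in the DMSO replicates and 9.70, 8.65 and 11.2 CPM in the AZD7762 replicates (log2 fold change 1.70, adjusted p = 4.69e-05, edgeR). Cyclin D1, a known target of repression by BTG2, could not be assessed, since CCND1 had at most 5 counts in any library and CCND2 at most 1. CCND3, the D-type cyclin with counts, went from 99.8 ± 7.54 to 113 ± 4.93 CPM (log2 fold change 0.18, adjusted p = 0.397, edgeR), and its groups did not overlap.

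Of 20 p53 target genes other than BTG2, 20 were tested and 0 were called, beside 0.708% of all genes, 2 had an unadjusted p under 0.05, beside 9.68%, and the median log2 fold change was -0.07. CDKN1A and MDM2, the best known targets, had log2 fold changes of -0.12 and -0.06 (adjusted p = 0.685 and 0.797, edgeR). PLK3, a polo-like kinase, had 6.03, 4.63 and 6.47 CPM in DMSO and 3.02, 3.66 and 3.56 CPM in AZD7762 (log2 fold change -0.74, adjusted p = 0.0558, edgeR). It was called lower with several other settings, among them without the filter on low counts and with DESeq2. For ZMAT3, an RNA-binding protein, the log2 fold change was -0.17 (adjusted p = 0.656, edgeR). Whether p53 is active in this cell line was not tested, and nothing about p53 and BTG2 is read from this list.

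BTG2 was first isolated together with other phorbol ester-inducible (TIS) genes, of which 6 were examined. All 6 were tested, 4 were called higher and 1 lower, against 0.357% and 0.351% of all genes, and the list was written with earlier results of these data known. NR4A1, an orphan nuclear receptor, went from 6.35 ± 0.631 to 71.9 ± 9.49 CPM (SD, n = 3, log2 fold change 3.50, adjusted p = 4.04e-09, edgeR). FOS followed, from 11.0 ± 1.77 to 84.3 ± 4.62 CPM (log2 fold change 2.92). ZFP36, which like the BTG and TOB proteins recruits CCR4-NOT to messenger RNA, went from 10.4 ± 0.688 to 31.1 ± 2.08 CPM (log2 fold change 1.59, adjusted p = 3.56e-07, edgeR). EGR1, a zinc finger factor, went from 41.7 ± 10.6 to 86.1 ± 6.65 CPM (log2 fold change 1.04, adjusted p = 0.00151, edgeR). PTGS2, which encodes cyclooxygenase, was the gene called lower and fell from 27.0 ± 3.13 to 16.4 ± 0.307 CPM (log2 fold change -0.72, adjusted p = 0.00137, edgeR), while IFRD1 had 6.73 ± 0.210 and 4.37 ± 0.714 CPM (log2 fold change -0.63, adjusted p = 0.0626, edgeR), its groups did not overlap, and it was called lower in 7 of 14 alternatives. BTG2 thus stood between FOS and ZFP36 in log2 fold change. Its mean CPM was above that of all 6 already with DMSO, at 97.7 against 41.7 for EGR1, the highest of them. With AZD7762 it was 553 against 86.1 for EGR1, again the highest of the 6.

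**Figure D4:**
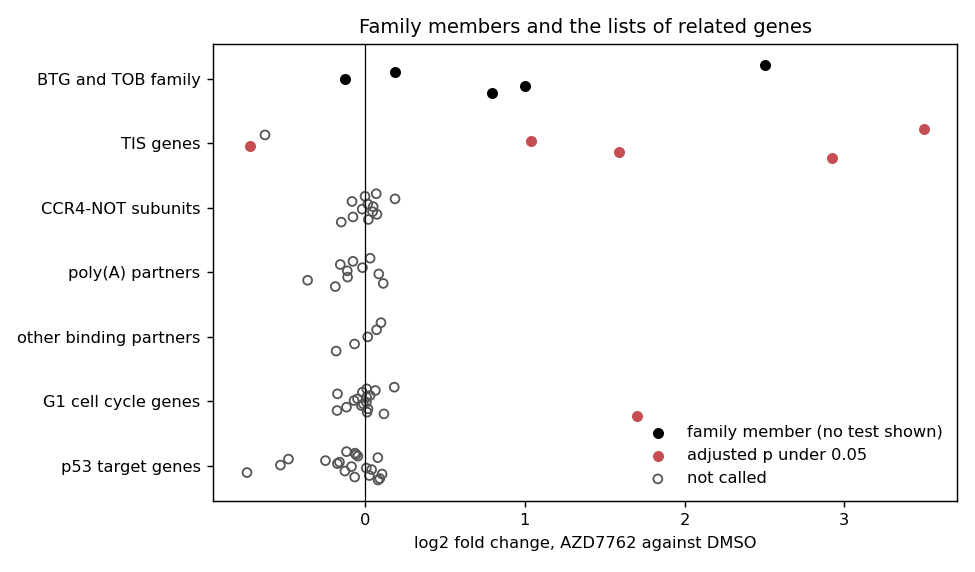
Log2 fold change of AZD7762 against DMSO (linear axis) for the 5 family genes (black, no test shown) and for the tested genes of 6 lists. Each circle is 1 gene, in the lists filled red where the adjusted p in edgeR's test was under 0.05, and the vertical spread within a list only separates the circles. Calls in the lists are 5 of 6 TIS genes and MYC, while the CCR4-NOT subunits lie between -0.15 and 0.19.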

How the data were processed

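The deposited files hold raw counts per Ensembl gene identifier, 1 table per sample. The authors checked reads with FastQC 0.10.1, trimmed them with cutadapt 1.18, aligned them to GRCh37 and counted them with HTSeq-count, and the aligner, annotation release and strand setting are not given in the sources used here. Libraries of polyadenylated RNA were made with either of 2 kits, 1 of them stranded, without a statement of which was used for which sample. The family, the gene lists and the motifs were chosen with earlier results of these data known.

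Symbols, exons and lengths came from GENCODE on GRCh37, which holds 58646 (96.7%) of the 60671 identifiers. In R 4.3.3 with edgeR 4.0.16, genes were filtered with filterByExpr (17649 left) and scaled by TMM factors, which lay between 0.983 and 1.02, and groups were compared by the two-sided quasi-likelihood test, treatment being the 1 term of the model, at an adjusted p under 0.05. Each standard error was derived from the fold change and its F statistic. The procedures were tested on simulated data. Replicates of a group differed by more than sampling noise (chi-square per gene between 4.92 and 9.53).

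Named genes are the family, annotated genes that carry a member's name or overlap it, the called genes of each list or, where fewer than 2 were called, the 2 that differed most on the log2 scale with mean log2 CPM at or above 1, and the 5 genes nearest to BTG2 and 3 nearest to each of TOB1 and TOB2. PABPC1, CNOT7, CNOT8, CDKN1A, MDM2, CCND1, CCND2, IFRD1, PDK4 and the overlapping LINC01619 were named after their values were seen. Alternatives were other scaling, filters and tests, the replicate number as a term, removal of trends with GC content and exon length, other gene lengths, and each sample left out in turn.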

Additional observations from a re-analysis of the deposited data

How the results depend on the processing

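Over 15 fits, counting the main one, and as a description, the log2 fold change of BTG2 ranged from 2.42 to 2.57, TOB1 from 0.88 to 1.08, TOB2 from 0.74 to 0.84, BTG1 from 0.091 to 0.26 and BTG3 from -0.17 to -0.09, with both ends of each range coming from leaving out 1 sample. The lower end for BTG1 came without AZD7762 replicate 2 and the upper end without DMSO replicate 1.

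Against 125 genes called in all, 330 were called when genes of low count were kept, 378 with a replicate block, 262 after removal of trends with GC content and length and 472 with the replicate block and this removal together, and between 77 (without AZD7762 replicate 1) and 168 (without DMSO replicate 3) with 1 sample left out. The cause was not tested. The split of higher and lower calls, 63 and 62, became 59 and 90 with library totals alone, 84 and 178 after removal of the trends and 153 and 319 with the replicate block added, and in the other direction 108 and 60 without DMSO replicate 3 and 49 and 28 without AZD7762 replicate 1. The replicate numbers were not shown to pair the samples, and the correlations of deviations from the group means do not settle it. Same-numbered samples correlated at 0.0533, 0.124 and 0.210, and differently numbered ones between -0.253 and 0.175. DMSO replicates 2 and 3 correlated best with the AZD7762 replicate of their own number. DMSO replicate 1 correlated better with AZD7762 replicate 2. The log2 fold change of BTG2 with the replicate block was 2.50.

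PLK3 was the 1 p53 target gene called with library totals alone, no filter, DESeq2's test, the replicate block, removal of the trends, and both of these, and with 1 sample left out the count was 0 to 1, the 1 being without DMSO replicate 2. CPEB2 was the 1 poly(A) partner called with no filter and with the replicate block and removal of the trends together. TIS calls went from 5 to 6, and those lower from 1 to 2 with IFRD1, in 7 of 14 alternatives, namely the 6 just given for PLK3 and without AZD7762 replicate 2. Counts of called CCR4-NOT subunits, other partners and G1 genes did not move in the 14 alternatives. The BTG2 share of the family was 22.4% with DMSO and 56.7% with AZD7762, but 19.3% and 52.9% with the longest transcript's length and 17.9% and 49.97% without length. With 1 sample left out, the difference of BTG2 from its paralogues ranged from 2.02 to 2.08.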
